A study of Mus musculus with 8 samples.

Results

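Chemokines and chemokine receptors were examined in bulk RNA-seq of whole kidneys from wild-type (WT) mice given cisplatin and from saline-injected controls. The family was defined by gene name (the Ccl, Cxcl, Cx3c and Xcl1 ligands, and the Ccr, Cxcr, Cx3c, Xcr1 and Ackr receptors) and by a protein-coding annotation. By this rule 28 of the 35880 genes with one count in each of the 8 libraries were members, namely 16 ligands and 12 receptors. Cisplatin is a platinum anticancer drug that injures the kidney tubule. Per the methods of the study, the mice were male C57/BL6J, the control animals (4 libraries, numbered 1, 2, 3 and 5) received saline by intraperitoneal injection, the cisplatin animals (4 libraries, numbered 1, 3, 4 and 6) received intraperitoneal cisplatin, and the kidneys were collected 72 h after the injection of the drug. Ages were not given in the sources used here, and no genetic change was carried by either group. The comparison asked which members of the family differed in RNA level between cisplatin-treated and control kidneys.

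Chemokines are small secreted proteins that bind G protein-coupled receptors on leukocytes, and the gradient they form guides those cells out of the blood and through tissue. Ligands with a glutamate-leucine-arginine motif, such as Cxcl1 and Cxcl5, attract neutrophils through Cxcr2. Ccl2 draws inflammatory monocytes through Ccr2, and Cxcl9 and Cxcl10 draw activated T cells and NK cells through Cxcr3. Injured tubule cells, endothelium and resident macrophages are all known sources of chemokines in the kidney, and Cx3cr1 is carried by most resident kidney macrophages.

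The libraries held 13539665 to 16201443 counts in controls and 10953338 to 16701599 counts in cisplatin kidneys over the genes used. Levels are given as CPM, the count of a gene scaled to the size of its library by TMM normalisation, in the order control 1, 2, 3 and 5 and then cisplatin 1, 3, 4 and 6. A total of 3 counts, the smallest amount treated as measurable, stood for 0.136 to 0.266 CPM depending on the library. The kidney label was met by the proximal tubule markers, of which 13 of 13 had counts, and their summed level was 63629 to 80759 CPM in controls and 1435 to 14651 CPM in cisplatin kidneys, with all 13 called lower, and the part of this fall in the results below was not tested. The first principal component held 73.6% of the variance and separated the groups. The second held 15.96% and set control 5, cisplatin 4 and cisplatin 6 apart from the other 5 libraries, a split that the labels do not mention. The Y-linked gene Kdm5d had 2 counts in cisplatin 1 and 0 in cisplatin 3, against 274 to 576 in the other 6 libraries, so cisplatin 1 and 3 did not match the male sex stated in the methods. Within the cisplatin group, the second component and the Y-linked counts made the same split. With cisplatin 4 and 6 alone against the 4 controls, 7 members were higher and 4 lower. Within the first set (control 1, 2 and 3 against cisplatin 1 and 3) 8 were higher and 4 lower, beside 8 and 3 with all libraries. In the first set only the controls had more than 2 Kdm5d counts, so treatment and sex cannot be told apart there.

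Promoter sequence is shown first for 4 ligands, 3 whose RNA was higher in cisplatin kidneys (Cxcl1, Ccl20 and Cxcl10) and the one that was lower (Cxcl9, the neighbour of Cxcl10). NF-κB and interferon-regulated factors are well-known regulators of chemokine genes, so the letters of their sites were searched for on both strands. The 3 higher ligands shown were the only members called higher with an NF-κB match. The other members called higher that had a promoter to search held no such match and are not shown. Each line holds the 250 bases before the RefSeq start of the gene in GRCm38.p6, read 5′ to 3′ on the gene's strand, at chr5:90890995-90891244 on the plus strand for Cxcl1, chr1:83116516-83116765 on the plus strand for Ccl20, chr5:92348890-92349139 on the minus strand for Cxcl10 and chr5:92328080-92328329 on the minus strand for Cxcl9. Capitals mark a match to the NF-κB consensus or to the core of the interferon-stimulated response element, searched as GAAANNGAA.
Cxcl1: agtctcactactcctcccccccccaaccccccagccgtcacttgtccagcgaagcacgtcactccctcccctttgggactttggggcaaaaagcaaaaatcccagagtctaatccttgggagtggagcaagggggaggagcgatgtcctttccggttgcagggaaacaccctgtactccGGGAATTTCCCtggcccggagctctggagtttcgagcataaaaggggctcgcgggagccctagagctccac
Ccl20: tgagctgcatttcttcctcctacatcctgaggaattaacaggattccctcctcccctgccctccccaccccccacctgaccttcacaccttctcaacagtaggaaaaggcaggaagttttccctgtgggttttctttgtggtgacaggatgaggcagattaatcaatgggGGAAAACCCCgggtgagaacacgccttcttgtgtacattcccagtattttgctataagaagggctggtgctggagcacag
Cxcl10: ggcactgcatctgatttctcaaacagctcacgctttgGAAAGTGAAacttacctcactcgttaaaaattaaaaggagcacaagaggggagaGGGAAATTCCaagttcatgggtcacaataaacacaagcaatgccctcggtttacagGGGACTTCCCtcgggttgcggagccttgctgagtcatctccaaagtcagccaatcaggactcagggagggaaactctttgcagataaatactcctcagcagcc
Cxcl9: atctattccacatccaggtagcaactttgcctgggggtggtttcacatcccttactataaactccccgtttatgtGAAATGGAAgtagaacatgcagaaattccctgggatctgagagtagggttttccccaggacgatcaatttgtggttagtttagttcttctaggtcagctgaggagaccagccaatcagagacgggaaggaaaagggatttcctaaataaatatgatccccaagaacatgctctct

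In Cxcl1 the NF-κB consensus lay 71 to 61 bases before the start, and in Ccl20 it lay 80 to 71 bases before the start. Cxcl10 held the NF-κB consensus at 2 places, 159 to 150 and 103 to 94 bases before the start, and the interferon core 213 to 205 bases before it. Cxcl10 also held the AP-1 letters TGANTCA 74 to 68 bases before the start. Cxcl9 had the interferon core 175 to 167 bases before the start and no match to the NF-κB consensus in this window. A RefSeq promoter was matched for 23 of the 28 members, and Ccl2, Ccl5, Ccl26 and Cxcl5 were among those without one. The NF-κB consensus was found in 3 of the 6 matched members called higher, in 0 of 3 called lower, in 1 of 5 not called (Ccrl2) and in 1 of 9 not tested (Ccr3), against 3.9% of all 32851 RefSeq promoters of this length. The interferon core was found in 1 of 6 called higher, in 2 of 3 called lower (Ccr2 and Cxcl9), in 1 of 5 not called (Cxcl14) and in 3 of 9 not tested, against 7.13% of all promoters, and the AP-1 letters, found in 6.75% of all promoters, were in 1 of 6, 0 of 3, 0 of 5 and 2 of 9. A member counted when any of its promoters matched, whereas the shares over all were counted per promoter. A match of letters is a description and not a bound site.

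Of the 28 members, 18 passed the filter on low counts and were tested. A gene was called when its adjusted p was under 0.05 and its log2 fold change was at least 1 in size. By this rule 8 members were higher in cisplatin kidneys (Cxcl1, Cxcl5, Ccl20, Ccl2, Ccl6, Cxcl10, Ccr1 and Cxcr2) and 3 were lower (Cxcl9, Cx3cr1 and Ccr2), while 7 were not called. Over all 9141 genes tested, 19.2% were called higher and 15.7% lower, beside 44.4% and 16.7% of the tested members. Ccl20, Cxcl5, Cxcr2, Ccr1 and Ccl2 had too few counts in controls to pass the filter by them. So did Cxcl1, with 9 counts in control 5, and Ackr4, which was not called. All of these entered the test only through the cisplatin libraries, where they were high. Cxcl9 and Cx3cr1 had too few counts in cisplatin kidneys and entered only through the controls, where they were high. The 44.4% and the 16.7% therefore describe the members and test nothing about the family. With at least 10 counts in every library, 8 members were left, of which 2 were higher and 0 lower. The 4 cisplatin libraries lay wholly above the 4 controls for 9 members, which held for 23.7% of all genes, and wholly below them for 3 members, which held for 22.5% of all genes. The median log2 fold change was 1.51 over the 10 tested ligands and -0.31 over the 8 tested receptors, against 0.08 over all genes. The ligand and receptor medians were the same with genes near 0 counts held at their lower bound. In whole tissue, fewer cells that express a gene and less RNA per cell cannot be told apart. The labels do not say that each library came from a different animal, and where they did not the p-values measure only the spread between libraries.

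**Figure D1:**
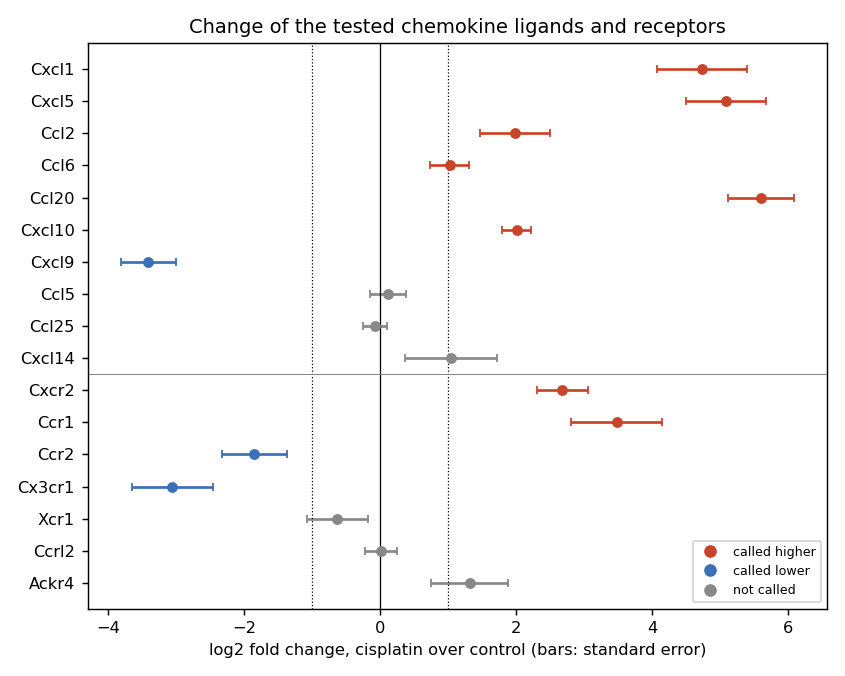
Log2 fold change of cisplatin against control kidneys for the tested members reported here, ligands above and receptors below the line (red called higher, blue called lower, grey not called), with bars of 1 standard error from edgeR and dotted lines at a log2 fold change of 1 in either direction. Ccl20, Cxcl5 and Cxcl1 stand farthest to the right and Cxcl9 and Cx3cr1 farthest to the left, and the fitted values of Ccl20 and Cxcl5 depend on the prior count because their controls were near 0.

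The neutrophil attractants that passed the filter were both far higher in cisplatin kidneys. Cxcl1 (ENSMUSG00000029380, chr5:90891241-90893115, plus strand), a main ligand of Cxcr2 in the mouse, was at 2.04, 8.70, 2.28 and 0.708 CPM in controls and at 52.4, 76.7, 127 and 110 CPM in cisplatin kidneys. Every cisplatin library lay above every control, and control 2 was the highest of the controls. Means were 3.43 ± 3.58 CPM in controls and 91.5 ± 33.4 CPM in cisplatin kidneys (SD, n = 4 each). The log2 fold change was 4.73 (SE 0.66, adjusted p = 0.000332, edgeR), a fitted ratio of 26.6. Without control 2 the log2 fold change was 5.76, and in the first set alone it was 3.83. The NF-κB letters in capitals above belong to this gene.

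Cxcl5 (ENSMUSG00000029371, chr5:90759360-90761624, plus strand), which attracts neutrophils through the same receptor and lies 129616 bases from Cxcl1, was almost without reads in controls. Its counts were 0, 0, 1 and 1 in controls and 39, 21, 25 and 23 in cisplatin kidneys, which corresponded to 1.77, 1.15, 1.83 and 1.82 CPM in the latter. The groups did not overlap, and the mean of 1.65 ± 0.328 CPM (SD, n = 4) was at least 6.19-fold higher than 3 counts in a control library. The adjusted p was 0.000119 (edgeR). The third member of this role, Cxcl15, a ligand known mainly from lung, had 0 counts in all 8 libraries, which allows up to 3 counts in each.

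The receptor for these ligands moved in the same direction. Cxcr2 (ENSMUSG00000026180, chr1:74153989-74161246, plus strand), the main neutrophil chemokine receptor, was at 0.708, 0.319, 0.455 and 0.236 CPM in controls and at 2.32, 3.30, 2.93 and 2.54 CPM in cisplatin kidneys. The groups were well apart, with the lowest cisplatin library above the highest control. The mean changed from 0.430 ± 0.207 to 2.77 ± 0.433 CPM (SD, n = 4 each). The log2 fold change was 2.68 (SE 0.38, adjusted p = 0.000357, edgeR), a fitted ratio of 6.40. Cxcr1, a related neutrophil receptor whose gene lies 30538 bases away, had 1 count in each of control 5, cisplatin 1 and cisplatin 6 and was not tested. Of 20 neutrophil markers, 9 had counts assigned here and 7 were tested. Of these 5 were higher in cisplatin kidneys (71.4%) and none lower, beside 19.2% and 15.7% of all genes, with 2 not called. All 5, Il1r2 among them, had too few control counts to pass the filter by the controls. They were tested only through the cisplatin libraries, so they could not have been called lower. The 71.4% therefore describes these markers and tests nothing about them. The summed level of the neutrophil markers was 4.71 to 8.18 CPM in controls and 23.0, 29.0, 29.9 and 37.8 CPM in the cisplatin kidneys. Il1r2, a decoy receptor for IL-1, went from 0.143 ± 0.101 to 6.13 ± 1.02 CPM (SD, n = 4 each, at least 23.1-fold higher), and Mpo, the enzyme of neutrophil granules, had 0 counts in every library. The part of neutrophil number in the Cxcr2 result was not tested.

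Both ligands that draw monocytes were higher in cisplatin kidneys, by less than the neutrophil attractants. Ccl2 (ENSMUSG00000035385, chr11:82035571-82037453, plus strand), the main ligand of Ccr2, was at 0.443, 0.399, 0.455 and 1.81 CPM in controls and at 2.59, 3.30, 2.27 and 4.28 CPM in cisplatin kidneys. Control 5 stood above the other controls but below every cisplatin library. The mean was 0.776 ± 0.689 against 3.11 ± 0.892 CPM (SD, n = 4 each), with a log2 fold change of 1.98 (SE 0.52, adjusted p = 0.0105, edgeR), and without control 5 it was 2.81. The annotated gene Gm17268 overlaps Ccl2 on the other strand, and because the sources used here do not say whether counting used strand, their reads may not be separate.

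Ccl6 (ENSMUSG00000018927, chr11:83587882-83593087, minus strand), a ligand made by myeloid cells that binds Ccr1, had controls that were nearly equal. It was at 4.34, 4.47, 4.32 and 4.32 CPM in controls and at 11.2, 8.36, 4.90 and 10.9 CPM in cisplatin kidneys. Cisplatin 4 was only just above the controls, and the groups did not overlap. The mean rose from 4.36 ± 0.0696 to 8.84 ± 2.92 CPM (SD, n = 4 each) at a log2 fold change of 1.02 (SE 0.29, adjusted p = 0.0158, edgeR), so the gene stood at the edge of the fold threshold. It was 0.87 without cisplatin 1, 0.91 without cisplatin 6 and 0.98 in DESeq2, each under that threshold. The gene E230016K23Rik overlaps it on the other strand.

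The receptors of monocytes and macrophages moved in opposite directions. Ccr1 (ENSMUSG00000025804, chr9:123962124-123968692, minus strand), found on monocytes and neutrophils, was at 0.443, 1.12, 0 and 0.786 CPM in controls and at 8.10, 6.65, 3.73 and 7.85 CPM in cisplatin kidneys. Cisplatin 4 was the lowest of its group and still above every control. The mean went from 0.586 ± 0.478 to 6.58 ± 2.002 CPM (SD, n = 4 each). The log2 fold change was 3.47 (SE 0.67, adjusted p = 0.00212, edgeR), a fitted ratio of 11.1. Reads of Ccr1 may be shared with its near copy Ccr1l1, which had 1 count in control 1 and none elsewhere.

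Cx3cr1 (ENSMUSG00000052336, chr9:119901616-120069879, minus strand), the fractalkine receptor of resident macrophages and patrolling monocytes, had the largest fall of the tested receptors. It was at 14.1, 10.5, 14.2 and 11.6 CPM in controls and at 3.23, 1.65, 0.220 and 0.714 CPM in cisplatin kidneys. All cisplatin libraries were below all controls, and cisplatin 4 was the lowest with 3 counts. The mean fell from 12.6 ± 1.85 to 1.45 ± 1.32 CPM (SD, n = 4 each). The log2 fold change was -3.06 (SE 0.60, adjusted p = 0.00227, edgeR), a fitted 8.33-fold fall. It was -3.82 without cisplatin 1 and -4.74 with cisplatin 4 and 6 alone. The annotated span of Cx3cr1 is long and holds 9 other genes, so some reads counted for it could come from those.

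Ccr2 (ENSMUSG00000049103, chr9:124101950-124113557, plus strand), the Ccl2 receptor of inflammatory monocytes, was at 8.15, 13.1, 7.36 and 8.57 CPM in controls and at 4.37, 2.75, 0.659 and 2.38 CPM in cisplatin kidneys. The groups did not overlap, and cisplatin 4 was again the lowest library. The mean fell from 9.29 ± 2.58 to 2.54 ± 1.52 CPM (SD, n = 4 each). The log2 fold change was -1.85 (SE 0.47, adjusted p = 0.00952, edgeR), a fitted 3.61-fold fall. Its call was lost when libraries were scaled by total count alone (-1.26, adjusted p = 0.0508). Ccl2 was thus higher, and its receptor Ccr2 lower, in the same cisplatin kidneys.

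**Figure D2:**
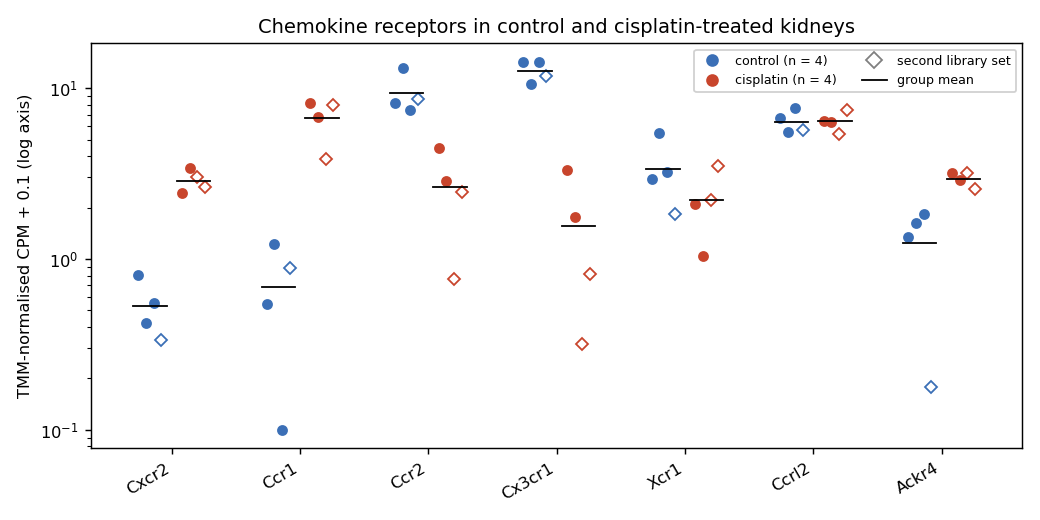
Level of the tested receptors reported here in CPM plus 0.1 on a log axis, with one dot per library (blue for control, red for cisplatin), open diamonds for control 5, cisplatin 4 and cisplatin 6 (the second library set), and a black line at the group mean. Ccr1 and Cxcr2 lie higher and Cx3cr1 and Ccr2 lower in the cisplatin kidneys, and the other receptors overlap except Ackr4.

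Markers of monocytes and macrophages did not move together in either direction. Of 20 such markers, 11 had counts assigned here and were tested, with 2 higher, 2 lower and 7 not called. These were 18.2% each way, near the 19.2% and 15.7% of all genes. Their summed level was 155 to 195 CPM in controls and 165 to 245 CPM in cisplatin kidneys. The sum includes Cd14, which alone was at 6.86 to 9.36 CPM in controls and 58.8 to 103 CPM in cisplatin kidneys. Cd14, the co-receptor for endotoxin, rose from 7.76 ± 1.12 to 81.2 ± 18.2 CPM (SD, n = 4 each), and Chil3, a marker of activated macrophages, rose from 0.417 ± 0.275 to 5.72 ± 1.29 CPM (SD, n = 4 each). Ms4a7 and Mpeg1, which were named after their values were seen, were the lower markers, with log2 fold changes of -1.50 and -1.24. The classical monocyte marker Ly6c2 had a log2 fold change of -1.52 (adjusted p = 0.116, edgeR) and was not called. Adgre1, Cd68 and Csf1r were not analysed here. The part of macrophage or monocyte number in the receptor results was not tested.

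The ligands that draw lymphocytes went apart. Ccl20 (ENSMUSG00000026166, chr1:83116766-83119167, plus strand), the ligand of Ccr6 on Th17 cells and some dendritic cells, had 0, 1, 1 and 2 counts in controls and 106, 71, 62 and 49 in cisplatin kidneys. In the cisplatin libraries this was 4.82, 3.90, 4.54 and 3.89 CPM, with a mean of 4.29 ± 0.468 CPM (SD, n = 4) that was at least 16.1-fold higher than 3 counts in a control library. The adjusted p was 2.17e-05 (edgeR), the smallest of the family. Every cisplatin library was far above every control, and the 4 cisplatin libraries were close to one another.

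Cxcl10 and Cxcl9, ligands of the same receptor that are both classically induced by interferon, lie 18558 bases apart on chromosome 5 and differed in opposite directions. Cxcl10 (ENSMUSG00000034855, chr5:92346638-92348889, minus strand) was at 14.7, 10.5, 10.9 and 7.78 CPM in controls and at 40.2, 38.1, 50.4 and 47.6 CPM in cisplatin kidneys. The groups did not overlap, and the mean went from 10.98 ± 2.84 to 44.1 ± 5.87 CPM (SD, n = 4 each). The log2 fold change was 2.005 (SE 0.22, adjusted p = 7.64e-05, edgeR), a fitted ratio of 4.01. Art3 overlaps Cxcl10 on the other strand.

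Cxcl9 (ENSMUSG00000029417, chr5:92321347-92328079, minus strand) was at 10.01, 7.98, 4.55 and 4.40 CPM in controls and at 0.773, 0.770, 0.512 and 0.397 CPM in cisplatin kidneys. All cisplatin libraries were below all controls. The mean fell from 6.73 ± 2.74 to 0.613 ± 0.189 CPM (SD, n = 4 each). The log2 fold change was -3.41 (SE 0.40, adjusted p = 0.000122, edgeR), a fitted 10.6-fold fall. Per kilobase of gene length, the ratio of Cxcl10 to Cxcl9 was 1.77 to 3.21 in controls and 66.3 to 161 in cisplatin kidneys. As printed above, both promoters held the interferon core, whereas a full match to the NF-κB consensus was found in that of Cxcl10 alone. The part of these letters in the opposite changes was not tested.

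**Figure D3:**
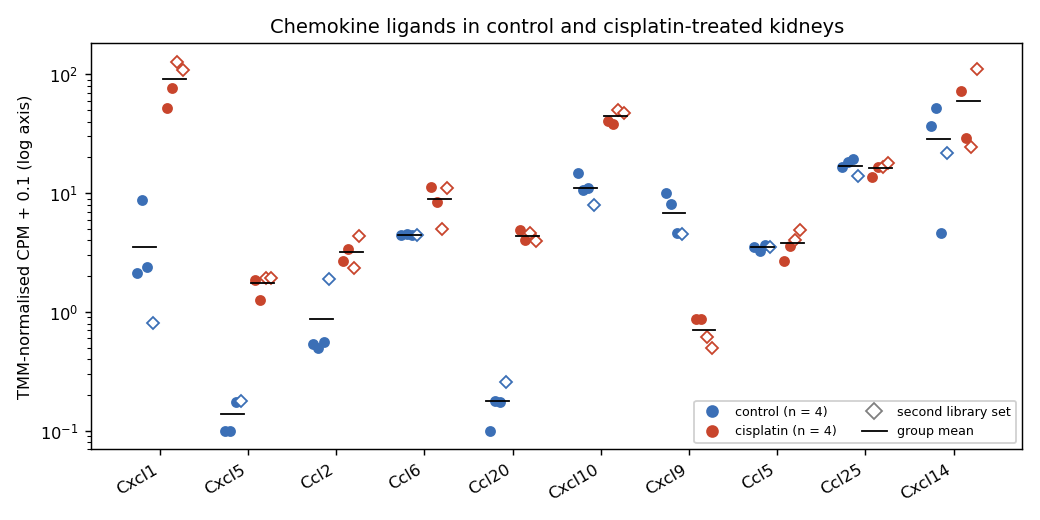
Level of each tested ligand in CPM plus 0.1 on a log axis, with one dot per library (blue for control, red for cisplatin), open diamonds for control 5, cisplatin 4 and cisplatin 6 (the second library set), and a black line at the group mean. Cxcl1, Cxcl5, Ccl20, Ccl2, Ccl6 and Cxcl10 lie wholly higher in cisplatin kidneys, Cxcl9 wholly lower, and Ccl5, Ccl25 and Cxcl14 overlap.

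The other lymphocyte attractants with counts did not pass the test. Ccl5 (ENSMUSG00000035042, chr11:83525778-83530518, minus strand), a product of T cells and NK cells, was at 3.45, 3.19, 3.56 and 3.46 CPM in controls and at 2.59, 3.52, 3.95 and 4.76 CPM in cisplatin kidneys (log2 fold change 0.11, SE 0.27, adjusted p = 0.757, edgeR). Ccl25 (ENSMUSG00000023235, chr8:4325210-4360020, plus strand), a ligand of Ccr9 that directs T cells to thymus and gut, was at 16.6, 18.03, 19.3 and 13.9 CPM in controls and at 13.6, 16.4, 16.4 and 17.8 CPM in cisplatin kidneys (log2 fold change -0.08, SE 0.18, adjusted p = 0.729, edgeR). The groups overlapped in both genes, and the sign of each small difference depended on the setting. Elavl1, on the other strand, overlaps Ccl25.

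Of 21 lymphocyte markers, 9 had counts assigned here and 7 were tested, with 1 higher (14.3%), 2 lower (28.6%) and 4 not called. Over all genes the shares were 19.2% and 15.7%. The summed level of the lymphocyte markers was 15.6 to 23.1 CPM in controls and 12.1 to 17.3 CPM in cisplatin kidneys. Cd8a, which marks cytotoxic T cells, fell from 5.24 ± 1.54 to 0.464 ± 0.361 CPM (SD, n = 4 each), while Cd79a, of the B cell receptor, rose from 1.02 ± 0.468 to 5.50 ± 3.65 CPM (SD, n = 4 each). Cd79b, also of the B cell receptor and named after its values were seen, was not called (log2 fold change 0.13, adjusted p = 0.739, edgeR). Nkg7, a granule gene of T and NK cells named after its values were seen, was also lower, with a log2 fold change of -3.79. Their part in the Cxcl9 result was not tested.

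Among receptors of other cells and scavenging receptors, no member was called. Xcr1 (ENSMUSG00000060509, chr9:123852315-123862029, minus strand), the receptor of cross-presenting dendritic cells, was at 2.83, 5.34, 3.11 and 1.73 CPM in controls and at 2.001, 0.935, 2.12 and 3.41 CPM in cisplatin kidneys. Its groups overlapped (log2 fold change -0.63, SE 0.45, adjusted p = 0.275, edgeR), and in the first set alone it was -1.40 (adjusted p = 0.0259). Ccrl2 (ENSMUSG00000043953, chr9:111054486-111057519, minus strand), a non-signalling receptor that binds chemerin, was at 6.55, 5.42, 7.51 and 5.58 CPM in controls and at 6.32, 6.27, 5.27 and 7.37 CPM in cisplatin kidneys (log2 fold change 0.01, SE 0.23, adjusted p = 0.978, edgeR). Its promoter held the NF-κB consensus, and its groups overlapped. Ackr4 (ENSMUSG00000079355, chr9:104084157-104126933, minus strand), a scavenger of Ccl19, Ccl21 and Ccl25, was at 1.24, 1.52, 1.74 and 0.0786 CPM in controls and at 3.09, 2.80, 3.07 and 2.46 CPM in cisplatin kidneys. Control 5 was far below the other controls, and although the groups of Ackr4 did not overlap it was not called (log2 fold change 1.31, SE 0.57, adjusted p = 0.0811, edgeR), and Acad11 overlaps it on the other strand.

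Cxcl14 (ENSMUSG00000021508, chr13:56288643-56296551, minus strand), a ligand made by epithelia at rest, varied widely between libraries of the same group. It was at 36.7, 51.9, 4.55 and 21.6 CPM in controls and at 71.8, 28.9, 24.5 and 111 CPM in cisplatin kidneys. The groups overlapped, with means of 28.7 ± 20.3 and 59.1 ± 40.8 CPM (SD, n = 4 each) and a log2 fold change of 1.04 (SE 0.67, adjusted p = 0.225, edgeR), so the difference was within the spread of the libraries.

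The 10 members that were not tested had few or no reads. Ccl1 had 1 count in control 3 and 2 in cisplatin 1, Ccr8 had 2 in control 2 and 1 in cisplatin 3, Ccr3 had 2 in cisplatin 6 and Ccl27b had 1 in control 3. Ccl19, Ccl21b, Ccl26 and Cxcl15 had 0 counts in all libraries. With no filter the 6 with any reads were not called, with adjusted p from 0.388 to 0.850 (edgeR). Ccl19, Ccl21b and Ccl27b have near-identical copies in the genome, so counting could have split or dropped their reads, and at this depth a level under 3 counts was not detectable. Another 33 genes that meet the name rule, among them Ccl3, Ccl7, Ccl8, Cx3cl1, Cxcl2, Cxcl12, Cxcl16, Cxcr3, Cxcr4 and Ccr7, were not analysed here.

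Per kilobase of gene length, which lets genes be set side by side, the summed level of the ligands was 19.5 to 49.0 CPM per kb in controls and 90.7 to 161 CPM per kb in cisplatin kidneys. The summed receptors were at 7.46 to 9.57 CPM per kb in controls and at 5.66 to 9.44 CPM per kb in cisplatin kidneys, so their ranges overlapped. In controls Cxcl14 had the highest mean level of the ligands (15.7 CPM per kb), followed by Cxcl10 (4.88), Ccl5 (3.56), Ccl6 (2.43), Ccl25 (2.28), Cxcl9 (2.23), Cxcl1 (1.83) and Ccl2 (0.682). In cisplatin kidneys the order was Cxcl1 (48.8 CPM per kb), Cxcl14 (32.3), Cxcl10 (19.6), Ccl6 (4.93), Ccl5 (3.86), Ccl20 (3.02), Ccl2 (2.73), Ccl25 (2.16), Cxcl5 (0.883) and Cxcl9 (0.203). Cxcl1 made up 1.41% to 9.46% of the summed ligand level in controls and 27.2% to 57.0% in cisplatin kidneys.

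The order of the receptors changed as well. In controls Cx3cr1 (2.79 CPM per kb) and Ccrl2 (2.41) were at the top, followed by Ccr2 (1.37), Xcr1 (0.731), Ackr4 (0.213), Ccr1 (0.207) and Cxcr2 (0.141). In cisplatin kidneys Ccrl2 (2.43 CPM per kb) and Ccr1 (2.32) were at the top, followed by Cxcr2 (0.909), Ackr4 (0.531), Xcr1 (0.475), Ccr2 (0.376) and Cx3cr1 (0.323). Cx3cr1 made up 25.0% to 34.6% of the summed receptor level in controls and 0.862% to 7.59% in cisplatin kidneys, while Ccr1 went from 0% to 4.24% in controls to 23.3% to 31.9%. Much of either order was not separated, since the ranges over the libraries of most neighbours overlapped. Neighbours apart from each other were Ccl5 and Ccl6 among the control ligands, and Cxcl10 and Ccl6, Ccl25 and Cxcl5, and Cxcl5 and Cxcl9 among the ligands in cisplatin kidneys. In controls Cxcl14 spanned 2.49 to 28.4 CPM per kb, which covered or overlapped the ranges of Cxcl10, Ccl5, Ccl25, Cxcl9 and Cxcl1, and in cisplatin kidneys its range of 13.4 to 60.9 overlapped those of Cxcl1 and Cxcl10. Among the receptors shown, Ccrl2 and Ccr2, and Xcr1 and Ackr4, were apart in controls, and Ccr1 and Cxcr2, and Cxcr2 and Ackr4, were apart in cisplatin kidneys.

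Downstream of the receptors, 41 genes of G protein and kinase signalling, of a list of 73, had counts assigned here and were tested, and no arrestin was among them. In cisplatin kidneys 3 were higher (7.32%) and 6 lower (14.6%), beside 19.2% and 15.7% of all genes, and 32 were not called. Their median log2 fold change was 0.06, beside 0.08 over all genes. Akt1, a survival kinase downstream of PI3K, had the highest level of the called genes and went from 134 ± 25.3 to 280 ± 21.0 CPM (SD, n = 4 each), with a log2 fold change of 1.06 (adjusted p = 0.00057, edgeR). Rgs16, which shortens G protein signalling, had the largest change, from 0.430 ± 0.188 to 9.87 ± 6.42 CPM (SD, n = 4 each), with a log2 fold change of 4.50 (SE 0.53, adjusted p = 0.000122, edgeR). Other calls, named after their values were seen, were Grk5 among the higher genes and Dock2, Prex1, Plcb2, Prkcb and Pik3cb among the lower, of which Dock2, Plcb2 and Prkcb are known mainly from blood cells. Scaling by total count alone turned the list to 10 higher and 0 lower, and the test against a log2 fold change of 1 left 1 higher and 0 lower. The list gave 5 higher genes without control 2, and with cisplatin 4 and 6 alone 13 lower genes.

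Of 33 genes of leukocyte rolling and adhesion, the step that chemokines trigger at the vessel wall, 15 had counts assigned here and 13 were tested. Of these 2 were higher (15.4%) and 1 lower (7.69%), beside 19.2% and 15.7% of all genes, and 10 were not called. Their median log2 fold change was 0.59, beside 0.08 over all genes. Itgam, the integrin chain of neutrophils and macrophages, rose from 1.11 ± 0.401 to 9.38 ± 3.15 CPM (SD, n = 4 each), with a log2 fold change of 3.07 (SE 0.37, adjusted p = 0.000144, edgeR). F11r, a tight junction protein, rose from 162 ± 16.8 to 330 ± 68.4 CPM (SD, n = 4 each), with a log2 fold change of 1.03 (SE 0.18, adjusted p = 0.00135, edgeR). Jam3, a related junction protein named after its values were seen, was lower at a log2 fold change of -1.02. The list gave 4 higher and 0 lower genes without cisplatin 4, 1 higher without cisplatin 6 and 0 lower without control 5, and by total count alone it gave 7 higher and 0 lower.

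**Figure D4:**
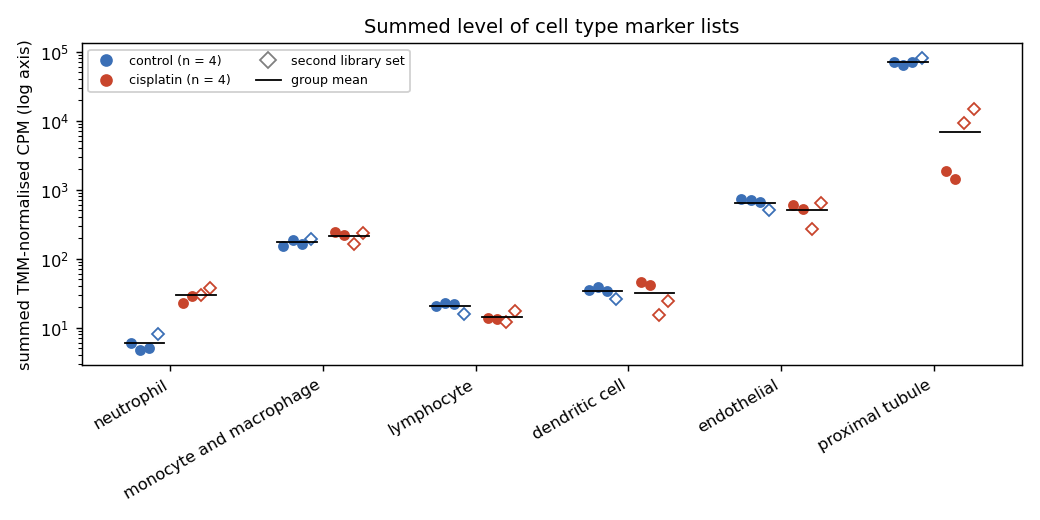
Summed level in CPM on a log axis of the marker genes of each cell type, with one dot per library (blue for control, red for cisplatin), open diamonds for control 5, cisplatin 4 and cisplatin 6, and a black line at the group mean. Neutrophil markers lie wholly higher in cisplatin kidneys (23.0 to 37.8 against 4.71 to 8.18 CPM), proximal tubule markers wholly lower, and monocyte and macrophage markers overlap.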

How the data were processed

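RNA of 8 mouse kidneys was sequenced. The authors trimmed reads with fastp, used HISAT2 with GRCm38 for alignment and deposited unnormalised counts per gene, each with a gene length, and the counting tool and strand setting are not given in the sources used here. The labels and the methods name different library kits. A row was used when it held 8 counts, and 17835 of 53715 rows with 10 values were left out, so the 2 unnamed extra columns were not used and library totals cover the used rows. Groups and replicate numbers came from the labels.

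Differences were tested with edgeR 4.0.16 in R 4.3.3 (default expression filter, TMM, quasi-likelihood test, two-sided, Benjamini-Hochberg adjustment over all 9141 genes tested). The standard error is the absolute log2 fold change divided by the square root of F. A fitted ratio or fold is the edgeR log2 fold change on a linear scale, and it can differ from the ratio of the means. A fold against a group with at most 3 counts in every library is a lower bound, from the treated mean and the highest CPM that 3 counts had in a control library. The floor covers counting error only. CPM per kb used the deposited gene length. Coordinates are those of GENCODE M21, and promoters are RefSeq (GRCm38.p6).

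All members were counted, and the values of 1 tested member and the name of 1 called gene of a list are not reported here. Members with a mean of at least 1 CPM in a group, and called members, were given per library. From each gene list the called gene with the highest mean CPM and the one with the largest change among those with a mean of at least 1 CPM were named, with defining markers at 0 counts. Members and lists were chosen with earlier results of these data known. Libraries of a group differed by more than sampling noise (chi-square of at least 15.3 per gene). Alternatives were DESeq2 1.42.0, other normalisations and filters, a test against a fold threshold, a replicate block, the library set, and leaving out each library.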

Additional observations from a re-analysis of the deposited data

Results flagged for a closer look

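Of 36 groups of 4 libraries (18 tested members in each condition), 3 held a library whose gap to its nearest neighbour exceeded Dixon's 95% critical share of the range of the group, and chance alone marks about 1 in 20 groups. Ccl2 was at 1.81 CPM in control 5, against 0.399 to 0.455 CPM in the other controls. Ccl6 was at 4.47 CPM in control 2, against 4.32 to 4.34 CPM in the other controls, a small difference in a tight group. Cxcl5 was at 1.15 CPM in cisplatin 3, against 1.77 to 1.83 CPM in the other cisplatin libraries.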

How the results depend on the processing

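Cxcl1, Cxcl5, Cxcr2, Ccr1, Cx3cr1, Ccl20, Cxcl10 and Cxcl9 kept their direction and their call in every alternative in which they were tested. At least 10 counts in every library left 8 members to test, of which 2 were higher and 0 lower. Leaving out 1 library at a time gave 7 to 8 members higher and 3 lower, 3 to 5 signalling genes higher and 4 to 8 lower, and 1 to 4 adhesion genes higher and 0 to 1 lower. Signalling genes numbered 10 higher and 0 lower by total library size, 1 and 0 in the test against a log2 fold change of 1, 5 higher in the first set alone and with the set added as covariate, and 13 lower with cisplatin 4 and 6 against all controls, an alternative chosen after seeing the data. Adhesion genes numbered 1 higher in DESeq2, with DESeq2 size factors and with the set as a covariate, 0 lower by upper quartile, 7 and 0 by total library size, 1 and 0 with at least 10 counts in every library and against a log2 fold change of 1, and 4 and 0 in the first set. Total library size moved the median of all genes by 0.57 (from 0.08 to 0.64) and the share of higher calls from 55.0% to 79.8%. Against a log2 fold change of 1, Ccl6, Ccr2 and Ccl2 lost their call (adjusted p = 0.632, 0.0788 and 0.0721), and Ccl6 also lost it with cisplatin 4 and 6 alone (0.85). Ackr4 was called by total library size (1.87) and with the set as a covariate (1.63). Differences near 0 changed sign. Ccrl2 was -0.026 in DESeq2, -0.024 with DESeq2 size factors, -0.10 in the first set and -0.070 to 0.094 with 1 library left out. Ccl5 was -0.21 in the first set and -0.028 to 0.25 with 1 library left out, and Ccl25 was 0.47 by total library size and 0.017 with cisplatin 4 and 6. The cause of these changes was not tested. The replicate numbers shared by the groups name different mice, and the deviations of same-numbered libraries (1 and 3) correlated at 0.25 and 0.28, beside 0.15 to 0.36 for other pairs of the first set. With the number as a replicate block, 9 members were higher and 4 lower, 5 signalling genes were higher and 3 lower, 0 adhesion genes were lower, Cxcl14 (1.69) and Xcr1 (-1.06) were called, Ccrl2 was -0.16 and Ccl5 was -0.21. Levels under 3 counts were not measurable at this depth.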

Other observations

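Marker lists of other kidney cells differed in how far they moved with treatment. Of a list of 9 thick ascending limb, distal tubule and collecting duct genes, 6 had counts assigned here. Of these 1 was higher (16.7%), 3 were lower (50%) and 2 were not called, beside 19.2% and 15.7% of all genes. The 1 higher gene was Aqp2, of the collecting duct. The summed level of the list was 7843 to 12082 CPM in controls and 1026 to 5460 CPM in cisplatin kidneys. Umod, which encodes uromodulin, fell from 4606 ± 1553 to 1280 ± 1053 CPM (SD, n = 4 each), and Slc12a3, the thiazide-sensitive cotransporter, fell from 2204 ± 529 to 214 ± 145 CPM (SD, n = 4 each). Aqp2, the vasopressin-regulated water channel of the collecting duct, went from 216 ± 128 to 629 ± 214 CPM (SD, n = 4 each, log2 fold change 1.54, adjusted p = 0.0109, edgeR). Its groups overlapped, with control 5 at 407 CPM and cisplatin 6 at 323 CPM. Aqp3, another water channel of that segment, was not called (log2 fold change -0.12). Both were named after their values were seen. Of the proximal tubule genes, Kap had the highest level and fell from 32283 ± 2193 to 4504 ± 5144 CPM (SD, n = 4 each). Slc7a13 had the largest change and fell from 1362 ± 364 to 16.3 ± 21.8 CPM (SD, n = 4 each). Both were lowest in cisplatin 1 and 3, which did not match the stated sex. In cisplatin 1, 3, 4 and 6, Kap was at 544, 229, 6220 and 11022 CPM and Slc7a13 at 1.59, 0.110, 16.3 and 47.1 CPM. The part of sex in the size of these falls was not tested.

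No gene was called among the 3 podocyte, 5 endothelial and 5 dendritic cell markers with counts assigned here. Summed dendritic cell markers were at 26.2 to 38.5 CPM in controls and 15.4 to 45.5 CPM in cisplatin kidneys, and summed endothelial markers were at 499 to 738 and 271 to 639 CPM, so the ranges of both overlapped. Summed podocyte markers were at 367 to 730 and 402 to 621 CPM.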
